A study of Mus musculus with 12 samples.

Results

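A set of 10 neutrophil granule genes were followed through histone-mark peak lists from mouse bone marrow cells: Mmp8, Mmp9, Ltf, Camp, Ngp, Lcn2, Olfm4, Cd177, Ly6g and Retnlg. They are 10 of the 21887 protein-coding genes with a unique symbol in the gene table, and all 10 were found. They were named as secondary and tertiary granule genes for their lower H3K27ac in the mutant mice, so the H3K27ac contrast chose them, and their H3K27ac values are given as a description that tests nothing; H3K4me1 and H3K4me3 were not used in the choice. Each gene was examined over its whole length with 10 kb on either side, called its window, in the mm10 coordinates of the peaks.

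The study profiled 3 histone marks by chromatin immunoprecipitation and sequencing (ChIP-seq) in cKit+ bone marrow cells of C57BL/6 mice, purified by fluorescence-activated sorting. cKit is the stem cell factor receptor, which marks stem and progenitor cells and mast cells. One genotype was wild type (WT) and the other carried Phf6R274X, a mutant form of the chromatin-binding protein Phf6, as a transgene (Tg). Each genotype had 2 libraries per mark, 12 libraries in all. The promoter driving the transgene, the age and sex of the mice, and whether animals were pooled are not given in the sources used here, so the spread between libraries may be technical. Because the data are lists of called peaks without read counts, the depth of each library is unknown. The value used throughout is the number of bases of a window that lie under peaks, in base pairs (bp), called the covered length.

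Several libraries differed in ways that touch the results. The 4 H3K27ac lists held 31257 to 42124 peaks covering 45.7 and 36.6 Mb of the genome in WT and 28.5 and 33.8 Mb in Tg, so the Tg mean was 75.7% of the WT mean. Both second H3K4me1 libraries covered far more of the genome, 117 to 120 Mb, than both first ones, at 66.3 to 70.7 Mb. In all 4 H3K4me3 lists the peaks themselves are named after the opposite genotype to the sample label, whereas in the other 8 lists name and label match. Every H3K4me3 direction is therefore that of the library labelled WT or Tg, and would turn round if the peak names were right. The first H3K4me3 library of either label had peaks at all 4 Y-linked genes examined, and the other 10 libraries at none. At Kit, the gene of the sorting marker, H3K27ac covered 5532 and 2397 bp in WT against 3113 and 2048 bp in Tg, and the groups overlapped. Phf6 itself carried 2210 and 2064 bp of H3K27ac in WT against 1988 and 2072 bp in Tg, which does not check the transgene.

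Neutrophils store their weapons in granules that are filled in order as the cell matures: primary granules with myeloperoxidase and serine proteases in promyelocytes, then secondary and tertiary granules with lactoferrin, cathelicidin, collagenase and gelatinase in myelocytes and later stages. Secondary and tertiary granule genes are therefore late genes of the lineage, known to depend on C/EBP-family transcription factors, C/EBPε above all. Of the marks profiled, acetylation (H3K27ac) sits at regulatory elements in use, H3K4me1 at enhancers whether active or poised, and H3K4me3 at promoters.

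The promoters of 5 members are shown because the peak changes described further on reach from total absence of H3K27ac in Tg (Olfm4) to a start region that kept most of it (Ngp). Each runs 5′ to 3′ on the strand of the gene, and holds the 250 bases before the transcript and its first 50 bases, and comes from RefSeq on GRCm38.p6, the assembly behind mm10. Capitals mark matches to TTGCNNAA, a C/EBP-type motif searched on both strands. In order, the intervals are chr9:7558179-7558478 (plus strand), chr9:111019042-111019341 (plus strand), chr14:80000052-80000351 (plus strand), chr7:24760262-24760561 (minus strand) and chr9:110419558-110419857 (plus strand).
Mmp8: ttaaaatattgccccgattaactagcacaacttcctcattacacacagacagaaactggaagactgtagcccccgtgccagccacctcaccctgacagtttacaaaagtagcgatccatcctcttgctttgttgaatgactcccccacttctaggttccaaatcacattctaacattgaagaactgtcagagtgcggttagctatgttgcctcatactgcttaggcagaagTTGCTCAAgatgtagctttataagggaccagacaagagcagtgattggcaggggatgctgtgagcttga
Ltf: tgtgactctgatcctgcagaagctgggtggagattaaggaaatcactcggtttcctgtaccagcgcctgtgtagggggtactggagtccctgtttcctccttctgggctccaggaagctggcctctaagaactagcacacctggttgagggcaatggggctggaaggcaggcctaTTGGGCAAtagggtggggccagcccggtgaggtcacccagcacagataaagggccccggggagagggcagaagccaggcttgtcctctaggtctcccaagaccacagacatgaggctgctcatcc
Olfm4: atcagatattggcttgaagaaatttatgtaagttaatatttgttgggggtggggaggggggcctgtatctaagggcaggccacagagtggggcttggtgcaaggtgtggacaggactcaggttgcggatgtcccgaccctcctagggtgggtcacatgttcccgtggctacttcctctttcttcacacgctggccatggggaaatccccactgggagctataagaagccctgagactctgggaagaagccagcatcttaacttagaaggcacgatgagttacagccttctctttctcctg
Cd177: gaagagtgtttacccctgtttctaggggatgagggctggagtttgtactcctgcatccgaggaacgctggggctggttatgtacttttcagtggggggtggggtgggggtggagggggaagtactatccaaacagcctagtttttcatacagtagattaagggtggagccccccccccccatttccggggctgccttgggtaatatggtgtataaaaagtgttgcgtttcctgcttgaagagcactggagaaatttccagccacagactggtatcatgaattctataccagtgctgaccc
Ngp: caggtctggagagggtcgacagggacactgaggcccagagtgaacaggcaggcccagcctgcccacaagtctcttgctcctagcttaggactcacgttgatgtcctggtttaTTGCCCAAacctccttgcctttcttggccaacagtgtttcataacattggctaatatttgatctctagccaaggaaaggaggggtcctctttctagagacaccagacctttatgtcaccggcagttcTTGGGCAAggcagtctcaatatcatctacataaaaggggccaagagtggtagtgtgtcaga
The Mmp8 match begins 19 bases before the start of the transcript and the Ltf match 75 bases before it. Ngp has a pair of matches, beginning 138 and 11 bases before the start, and Olfm4 and Cd177 have none. RefSeq promoters were matched for 9 members, all except Mmp9. TTGCNNAA lies in the promoters of 6 of these 9 genes (Mmp8, Ltf, Ngp, Lcn2, Ly6g and Retnlg) and in 10.8% of 32851 mouse promoters of the same length. GAGGAA, the core bound by PU.1-type factors, lies in 6 of 9 against 28.3% of all promoters, and TATAA in 5 of 9 against 24.9%. The motifs were picked after the member sequences had been seen, and a match is a description of letters only.

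H3K27ac was lower in Tg at all 10 genes. At each of them both Tg libraries had a shorter covered length than both WT libraries, an order that 45.3% of the 13604 genes tested also showed (5.59% showed the opposite order). Summed over the 10 windows, H3K27ac covered 94.7 and 92.3 kb in WT (93.5 ± 1.71 kb, SD, n = 2) and 39.2 and 37.9 kb in Tg (38.6 ± 0.930 kb, SD, n = 2), so Tg held 41.3% of WT against 75.7% for the genome. Tg libraries had somewhat fewer peaks in the windows, 42 and 44 against 59 and 50, and much shorter ones, with a mean covered length per peak of 934 and 862 bp against 1605 and 1846 bp. Peaks were also shorter in Tg over the whole genome, with median widths of 591 and 574 bp against 717 and 852 bp in WT. The sums within the first and the second replicates taken alone were 41.4% and 41.1% of WT.

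**Figure D1:**
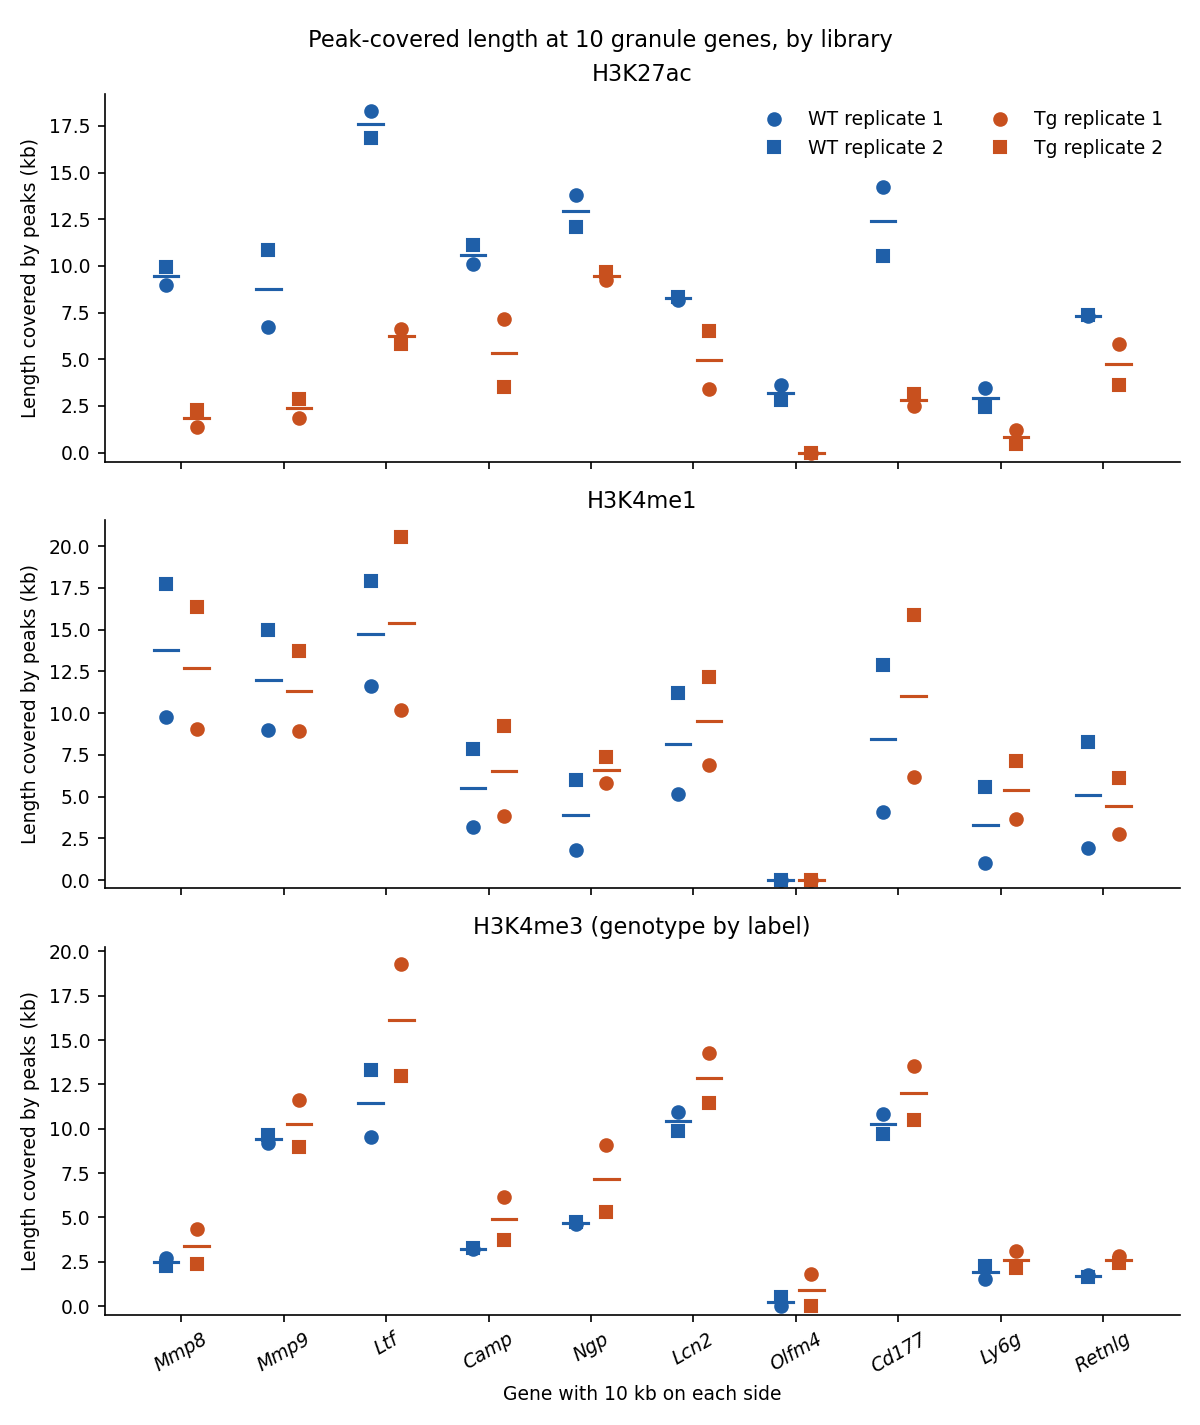
Covered length in kb (vertical axes) of the 10 gene windows in each of the 4 libraries of H3K27ac, H3K4me1 and H3K4me3; points are single libraries, by label. The H3K27ac points of Tg lie below those of WT at every gene, from Olfm4 at 0 to Ngp at 9257 and 9662 bp. The H3K4me1 points of the genotypes overlap at all 10, as the groups do at most genes tested.

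After quantile normalization and log2(bp + 500), which removes the genome-wide difference in covered length, the members' median log2 change from WT to Tg was −1.12, beside 0.03 over all genes tested. All 10 members lay below 0, as did 44.6% of all genes. In limma's fit across all genes, at a Benjamini-Hochberg threshold of 0.05, 31 of the 13604 genes (0.228%) were called lower and 21 higher, 0.382% in all, and Mmp8, Olfm4 and Cd177 were among the 31. Since this contrast chose the members, that count restates the choice, is no test of them, and nothing is read from these shares. The number of calls also changed with the libraries kept. With a library left out, its genotype had a single library, and the spread came from the pair of the other genotype alone. Such fits cannot show which libraries the calls rest on.

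The matrix proteases differed widely between the genotypes. Mmp8, the neutrophil collagenase (chr9:7558429-7568486, plus strand), had 8993 and 9927 bp of H3K27ac in WT against 1399 and 2302 bp in Tg. Both Tg libraries were far below both WT libraries, at 19.6% of the WT mean (9460 ± 660 bp against 1851 ± 639 bp, SD, n = 2), and the log2 change was −1.81 ± 0.204 (SE). The peak at its start site (chr9:7557566-7559155) covered 1285 and 1590 bp in WT, was absent in Tg replicate 2, and in Tg replicate 1 held 255 bp inside the gene and not at the start. In the stretch after the end of the gene, 3 regions with peaks in both WT libraries had none in either Tg library, the widest being chr9:7569843-7571536 with 1692 and 936 bp. The last of them, chr9:7571692-7572532, and part of the widest lie in Mmp27, a neighbouring metalloproteinase whose window shares most of these peaks. Mmp27 covered 11057 and 11045 bp in WT against 1390 and 2426 bp in Tg.

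Mmp9, or gelatinase B, the defining protease of tertiary granules (chr2:164940326-164955850), had 6725 and 10828 bp of H3K27ac in WT against 1881 and 2855 bp in Tg. The groups did not overlap, Tg stood at 26.98% of WT, and the log2 change was −1.38 ± 0.308 (SE). Its widest region, chr2:164938352-164945569, covered 4770 and 7218 bp in WT against 1368 and 1653 bp in Tg. A region inside the gene, chr2:164949777-164950306, had 395 and 530 bp in WT and no peak in Tg.

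The antimicrobial proteins of secondary granules ranged from large to small differences. Ltf encodes lactoferrin, the iron-binding protein of secondary granules (chr9:111019292-111042766, plus strand), and had 18315 and 16841 bp in WT against 6623 and 5817 bp in Tg, 35.4% of WT. It had the longest covered length of the 10 genes in WT, its groups stood well apart, and its log2 change was −1.03 ± 0.188 (SE). The region over its start, chr9:111015420-111026239, covered 10407 and 9932 bp in WT against 4253 and 4495 bp in Tg. An upstream region, chr9:111004676-111010804, differed in the same direction, with 5949 and 6053 bp against 2442 and 1928 bp. These lengths are for the whole region, most of which lies outside the window, which begins at chr9:111009292. Inside the gene, chr9:111034537-111035296 and chr9:111035530-111036224 had peaks in both WT libraries and in neither Tg library.

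Camp, encoding the cathelicidin precursor (chr9:109847377-109849456, minus strand), had 10106 and 11109 bp in WT against 7150 and 3519 bp in Tg. The Tg libraries differed from each other by more than the WT libraries did, and the log2 change was −0.68 ± 0.394 (SE). It was −1.26 without Tg replicate 1 and −0.10 without Tg replicate 2. Its start region, chr9:109846671-109856564, held 8922 and 9868 bp in WT against 7150 and 3519 bp in Tg, which is all of the Tg coverage. A pair of upstream regions, chr9:109858005-109858695 and chr9:109858902-109860042, had peaks only in the WT libraries.

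Ngp, neutrophilic granule protein (chr9:110419808-110423012, plus strand), had the smallest difference: 13789 and 12098 bp in WT against 9257 and 9662 bp in Tg. Its Tg coverage was 73.1% of WT, close to the genome's 75.7%, and the log2 change after normalization was −0.03 ± 0.146 (SE). That sign was not stable: it was 0.15 with 5 kb flanks, 0.01 with strong peaks only and 0.02 without WT replicate 2. The region over its start, chr9:110413594-110425188, was 1 unbroken peak in either WT library (11191 and 11537 bp), and in Tg lay under 2 and 4 peaks (8991 and 9662 bp). Its highest H3K27ac peak ranked near the top of all 4 H3K27ac lists, at percentile 98.5 and 96.3 in WT and 94.9 and 96.0 in Tg by the authors' −log10 q value.

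Lcn2, encoding neutrophil gelatinase-associated lipocalin, which binds iron-carrying siderophores (chr2:32384637-32387739, minus strand), had 8170 and 8339 bp in WT against 3414 and 6510 bp in Tg. Tg was lower in both libraries, and the log2 change was −0.38 ± 0.259 (SE), or −0.05 without Tg replicate 1 and −0.74 without Tg replicate 2. Its start region, chr2:32386349-32389869, was covered over 3167 and 3521 bp in WT against 1834 and 2702 bp in Tg. Its window also holds 1110008P14Rik, Ciz1 and Ptges2, whose own log2 changes were −0.33, −0.06 and −0.34.

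Olfm4, encoding olfactomedin 4, a secondary granule protein of a subset of neutrophils (chr14:80000302-80023141, plus strand), had 3602 and 2795 bp of H3K27ac in WT and no peak in either Tg library. No fold is given because Tg is listed at 0. The WT signal lay mostly in 2 regions. One, chr14:80000315-80001584, begins 13 bp inside the gene and covered 1179 and 1014 bp. The other, chr14:79994361-79996386, ends at −3916 bp from the start and covered 1953 and 1781 bp. No H3K4me1 peak was called in the Olfm4 window in any of the 4 libraries.

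The surface proteins showed the same order of groups. Cd177, a glycosylphosphatidylinositol-anchored protein of neutrophils that travels with granule membranes (chr7:24743983-24760334, minus strand), had 14242 and 10539 bp in WT against 2500 and 3156 bp in Tg. Tg stood at 22.8% of WT, and the log2 change was −1.61 ± 0.149 (SE). The region over its start, chr7:24756948-24763947, covered 7000 and 5296 bp in WT against 2245 and 2350 bp in Tg. A further 3 regions had peaks in both WT libraries and in neither Tg library, among them chr7:24752673-24755012 inside the gene with 2340 and 2054 bp. Another of them, chr7:24733308-24733983, reaches only the first base of the window, and its peak in WT replicate 2 lies outside the window.

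Ly6g, the antigen recognised by antibodies used to identify mouse neutrophils (chr15:75155261-75159128, plus strand), had 3435 and 2465 bp in WT against 1214 and 458 bp in Tg. Its groups did not overlap, and the log2 change was −1.20 ± 0.384 (SE), or −1.80 without Tg replicate 1 and −0.63 without Tg replicate 2. Only WT replicate 1 had a peak at its start, of 368 bp. An upstream region ending at −4176 bp from the start, chr15:75149856-75151085, covered 958 and 1127 bp in WT and had no peak in Tg.

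Retnlg, encoding resistin-like gamma, a small secreted protein of granulocytes (chr16:48872608-48874498, plus strand), had 7321 and 7344 bp in WT against 5802 and 3646 bp in Tg. The log2 change was −0.31 ± 0.299 (SE) and turned to 0.12 without Tg replicate 2. Its start region, chr16:48870584-48875062, kept 3622 and 3365 bp in Tg of 4479 and 4231 bp in WT. A second region, chr16:48867948-48869986, covered 1631 and 1515 bp in WT, 1107 bp in Tg replicate 1 and 0 bp in Tg replicate 2.

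**Figure D2:**
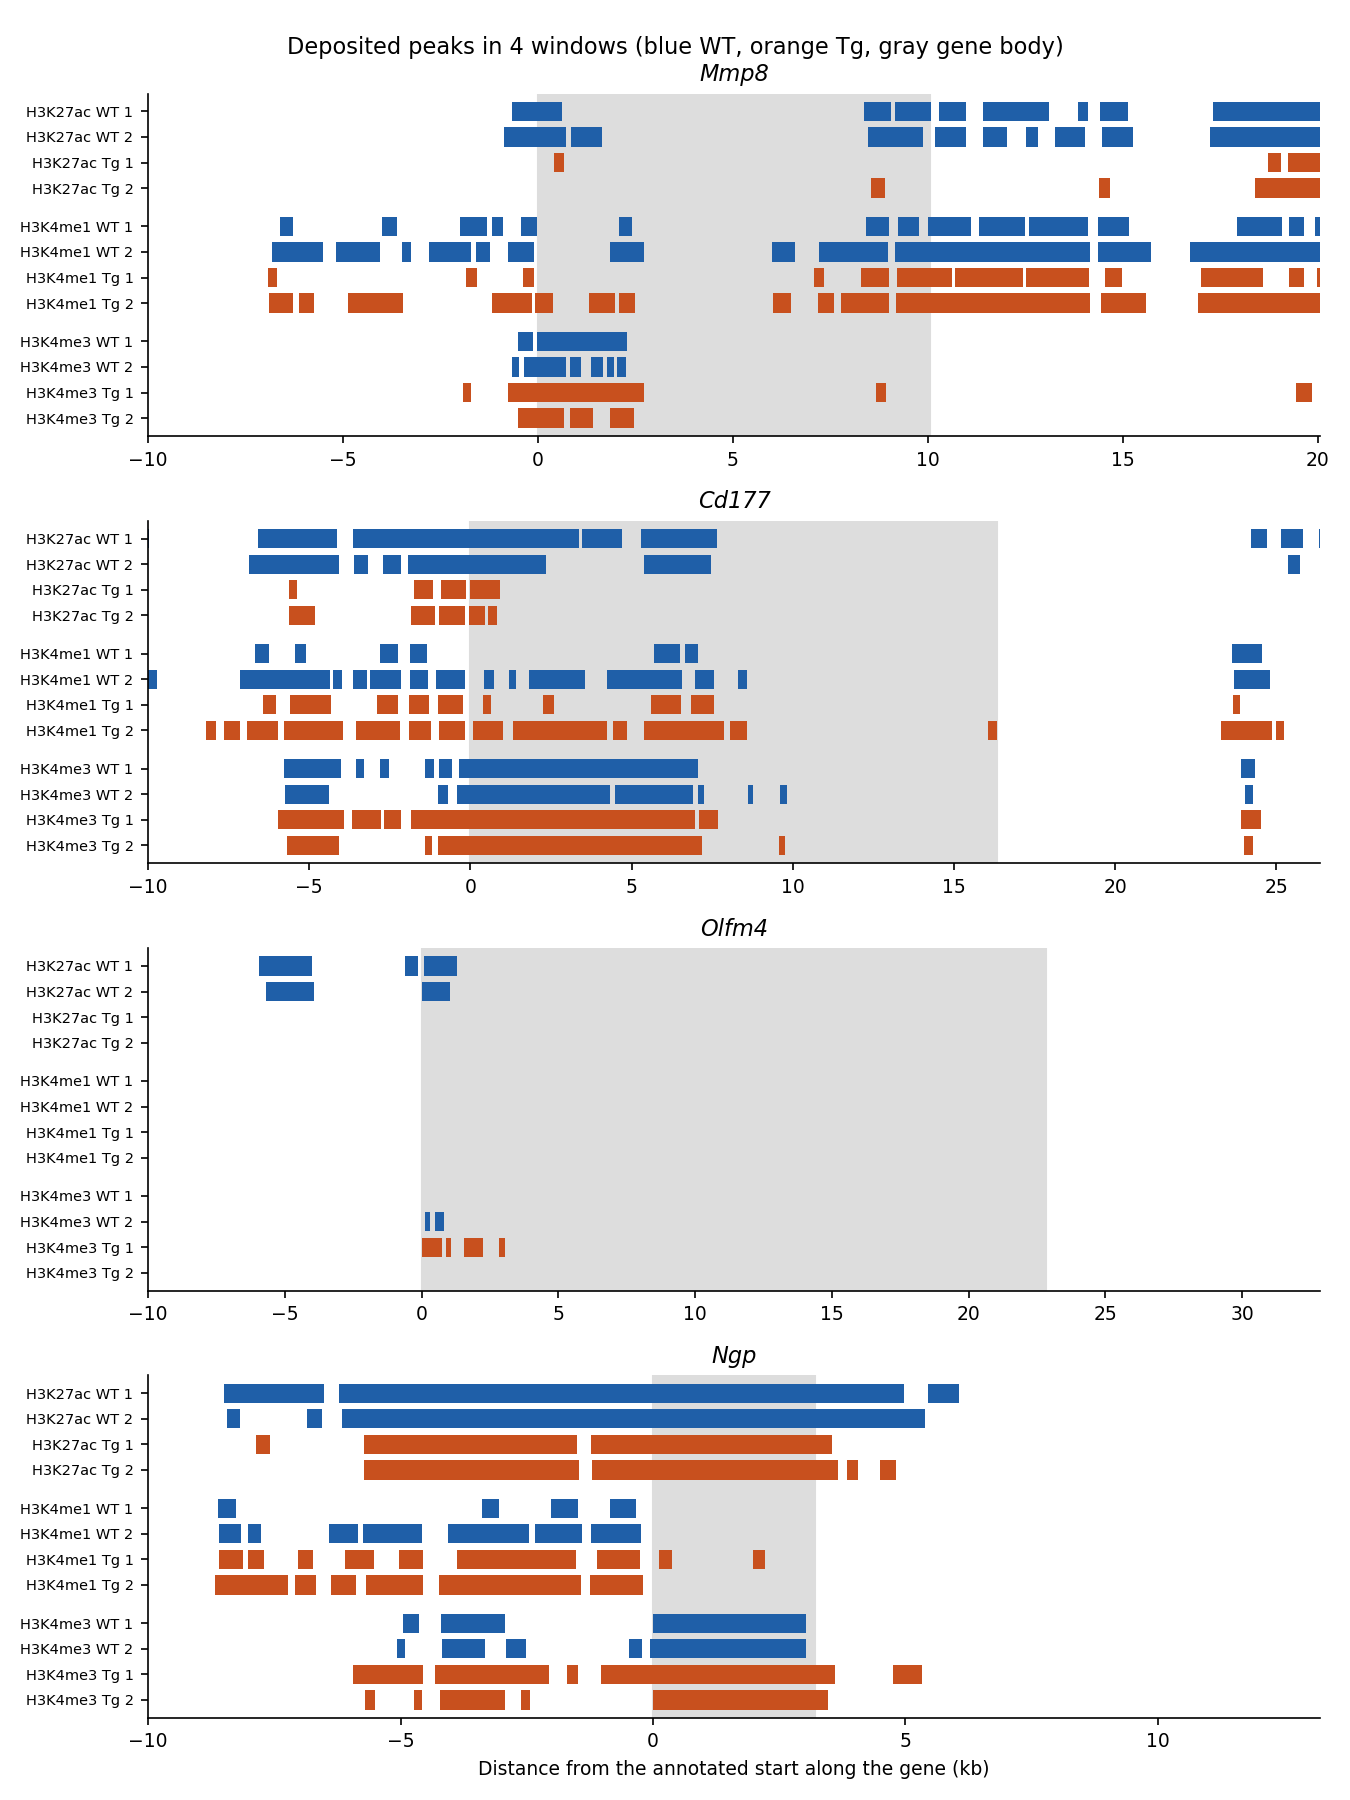
Peaks of the 12 libraries around 4 members, with distance from the gene's start in kb along the horizontal axis and 1 row per library, coloured by genotype label. The H3K27ac rows of Tg are shorter than those of WT at each gene, and the Olfm4 rows of Tg hold no H3K27ac peak.

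Merging the H3K27ac peaks of all 4 libraries gave 56 regions that lay in or touched the 10 windows. Of these, 14 (25.0%) had peaks in both WT libraries and in neither Tg library, against 4.9% of the 48376 regions of the genome. None had peaks in both Tg libraries and in neither WT library, against 1.94% of the genome's regions. The 14 were spread over 7 genes: 3 each at Mmp8 and Cd177, 2 each at Ltf, Camp and Olfm4, and 1 each at Mmp9 and Ly6g. Ngp, Lcn2 and Retnlg had none. A further 18 regions (32.1%, against 40.5% of the genome) had peaks in all 4 libraries, and at all 18 both Tg libraries covered less than both WT libraries, as at 48.4% of 19612 such regions of the genome (6.32% were longer in both). Of the 9 members with an annotated start, 8 and 7 had a start-site H3K27ac peak in WT and 5 and 6 in Tg. The corresponding shares over all genes were not computed, so nothing is read from these counts. The lower coverage continued past the windows, with 19.8 and 18.7 kb in WT and 9.49 and 8.74 kb in Tg between 10 and 15 kb from the genes.

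A position-by-position view came from the 80192 bp of the windows that carried H3K27ac in both WT libraries. Tg replicates 1 and 2 covered 44.8% and 45.4% of these bases with H3K27ac, against 71.0% and 80.1% of the corresponding bases over all gene windows. Among the members the share was 0% at Olfm4 in both, 17.2% and 28.6% at Mmp8 and 24.5% and 31.0% at Cd177. It was highest at Ngp, with 76.9% and 82.6%. These bases were chosen from the WT libraries, so a lower share in Tg follows in part from the choice, as the figures for all gene windows show.

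**Figure D3:**
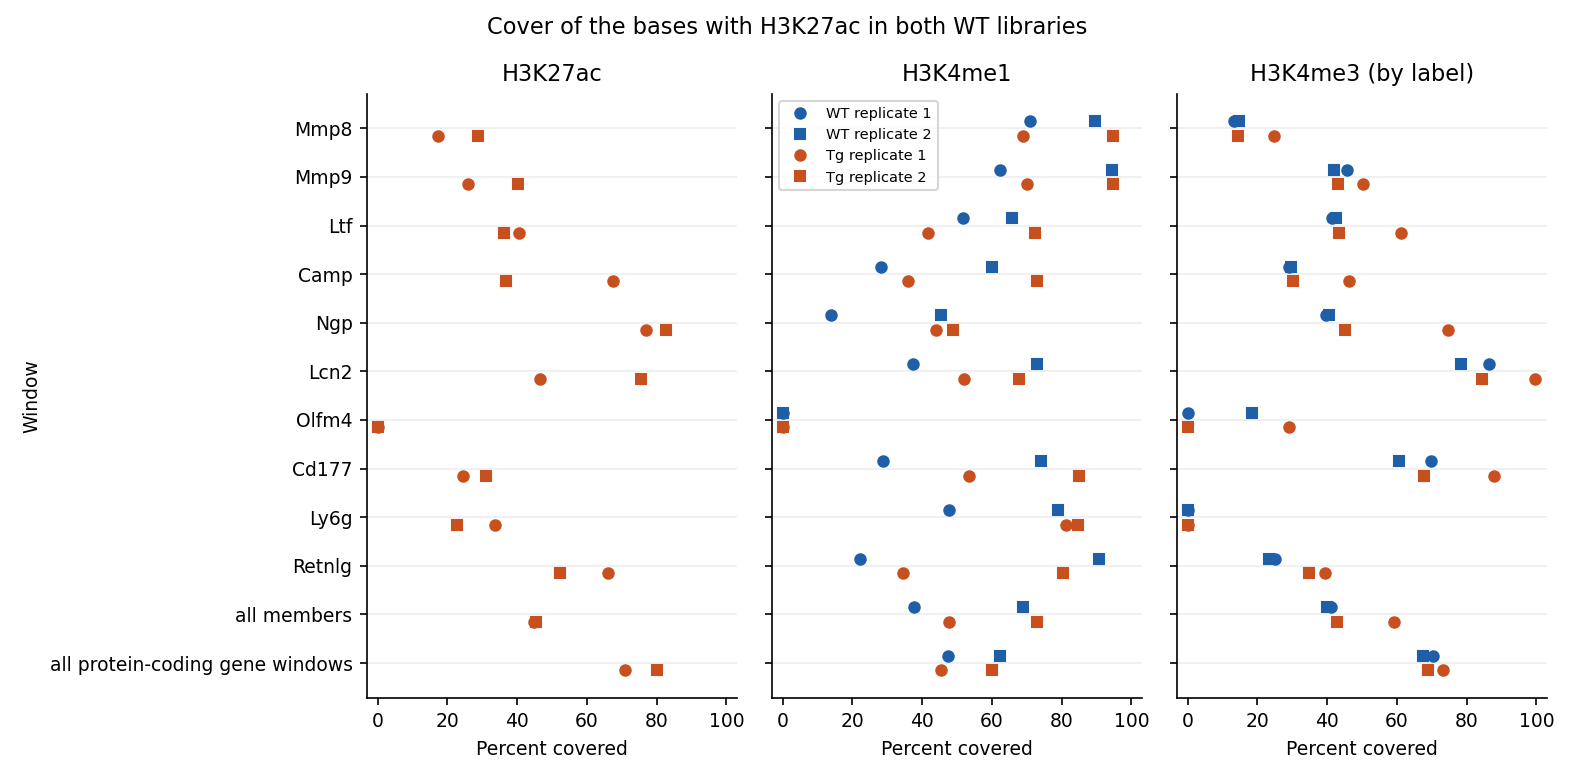
Percent of the bases with H3K27ac in both WT libraries that each other library covers with H3K27ac, H3K4me1 or H3K4me3, for the members and for all gene windows. H3K27ac of Tg covers 44.8% and 45.4% of the members' bases, below the 71.0% and 80.1% of all windows. H3K4me1 covers 37.6% and 68.9% of the members' bases in WT and 47.8% and 72.9% in Tg. For all windows its shares are 47.3% and 62.2% in WT and 45.4% and 60.2% in Tg.

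Enhancer-type H3K4me1 did not show the H3K27ac pattern. Of the 9 members with enough peaks to be tested, none passed the threshold, and neither did any of the 16134 genes (percent called 0, with 1357 genes at an unadjusted p under 0.05). Their median log2 change was 0.27 beside 0.00 over all genes; 7 lay above 0 and 2 below, where 49.6% of all genes were. The median was 0.05 without Tg replicate 2, 0.07 without WT replicate 1 and 0.50 without WT replicate 2. The groups overlapped at all 10 members, counting Olfm4 with 0 bp in all 4 libraries. Most genes overlapped too: 6.48% of all genes had both Tg libraries below both WT libraries and 2.5% both above. The sums over the windows were 47.4 and 102 kb in WT and 57.3 and 108 kb in Tg, a spread that follows replicate number. Within the first replicates the Tg sum was 121% of WT and within the second 106%, with 6 members higher and 3 lower in either. The matching counts over all genes were not computed.

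At Mmp8, H3K4me1 covered 9766 and 17737 bp in WT against 9061 and 16372 bp in Tg, and the log2 change of −0.09 had an adjusted p of 0.928 by limma. Of the bases at Mmp8 with H3K27ac in both WT libraries, H3K4me1 covered 71.0% and 89.6% in WT and 68.8% and 94.8% in Tg, while H3K27ac covered 17.2% and 28.6% in Tg. The H3K4me1 region over the end of Mmp8, chr9:7567587-7572589, which begins inside the gene and spans the 3 H3K27ac regions found only in WT, covered 4304 and 5003 bp in WT against 4747 and 4982 bp in Tg. So the genotypes differed little in H3K4me1 there, over bases where H3K27ac peaks were called in WT alone.

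Mmp9 behaved like Mmp8 in this mark. H3K4me1 covered 8978 and 14965 bp in WT against 8927 and 13716 bp in Tg, and the log2 change of −0.05 had an adjusted p of 0.963 by limma. At Ltf the values were 11596 and 17907 bp in WT against 10202 and 20532 bp in Tg, with a log2 change of 0.03 and an adjusted p of 0.984 by limma. All 3 genes had differences between replicates many times the difference between genotypes.

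The remaining tested members had H3K4me1 changes from 0.05 to 0.92. Ly6g covered 1013 and 5601 bp in WT against 3636 and 7145 bp in Tg (log2 change 0.92 ± 0.401, SE, adjusted p = 0.612 by limma). Ngp covered 1789 and 5976 bp in WT against 5843 and 7349 bp in Tg (log2 change 0.90 ± 0.301, SE, adjusted p = 0.532 by limma). In both genes the lowest value was WT replicate 1, and the second WT library lay within the Tg range. At Cd177 the values were 4052 and 12864 bp in WT against 6194 and 15844 bp in Tg, with a log2 change of 0.45 ± 0.373 (SE) and an adjusted p of 0.763 by limma. Camp, Lcn2 and Retnlg had log2 changes of 0.28, 0.27 and 0.05 with adjusted p of 0.799, 0.752 and 0.983 by limma. Of 81 H3K4me1 regions in the windows, 40 (49.4%, against 33% of the genome) had peaks in all 4 libraries. Both Tg libraries covered less than both WT libraries at 1 of these 40 and more at 3, against 8.72% and 8.31% of such regions of the genome. No region was found in both WT libraries alone (3.25% of the genome's regions were). A single region was found in both Tg libraries alone, at chr9:110412708-110413126 upstream of Ngp (305 and 419 bp), beside 1.97% of the genome's regions.

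Promoter-type H3K4me3 was longer in the libraries labelled Tg at the members, with Tg replicate 1 the longest throughout. Of the 10 members none passed the threshold, as none of the 16136 genes did (percent called 0, with 737 genes at an unadjusted p under 0.05). All 10 log2 changes lay above 0, with a median of 0.42, against 49.1% of all genes below 0. The summed covered length was 54.3 and 57.2 kb in WT and 86.1 and 59.8 kb in Tg, and Tg replicate 1 had the highest value at all 10 genes. Within the first replicates all 10 members were higher in Tg, with a sum of 158% of WT. Within the second, 6 were higher and 4 lower, with a sum of 105%. The matching counts over all genes, by replicate or by highest library, were not computed. Over the genome H3K4me3 covered 43.6 and 38.3 Mb in WT and 40.9 and 40.0 Mb in Tg. The genome's Tg mean was thus 98.8% of the WT mean. Without Tg replicate 1 the median was 0.16, and the changes of Mmp8, Mmp9 and Olfm4 were −0.00, −0.04 and −0.41.

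Both Tg libraries lay above both WT libraries at Camp, Ngp, Lcn2 and Retnlg, 4 of the 10, beside 11.6% of all genes, and the groups overlapped at the other 6. Retnlg had 1741 and 1626 bp in WT against 2818 and 2413 bp in Tg, a log2 change of 0.55 ± 0.0969 (SE) with an adjusted p of 0.922 by limma. Ngp had 4639 and 4740 bp in WT against 9083 and 5279 bp in Tg, a log2 change of 0.51 ± 0.241 (SE) with an adjusted p of 0.922 by limma. For Ngp nearly all of the gap came from the first Tg library, and for Retnlg both Tg libraries were clearly longer. Camp and Lcn2 had log2 changes of 0.50 and 0.24.

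At Ltf H3K4me3 covered 9543 and 13311 bp in WT against 19312 and 12980 bp in Tg, so the second libraries of the genotypes were nearly equal. Cd177, with 10821 and 9685 bp against 13529 and 10469 bp, and Mmp9, with 9206 and 9676 bp against 11610 and 8978 bp, likewise overlapped. Mmp8 had 2693 and 2236 bp in WT against 4367 and 2397 bp in Tg, and Ly6g 1505 and 2289 bp against 3104 and 2141 bp. Olfm4 had a peak in WT replicate 2 (486 bp) and Tg replicate 1 (1794 bp) and in neither of the others. None of these genes separated the genotypes in this mark.

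Of 47 H3K4me3 regions in the windows, 21 (44.7%, against 54.7% of the genome) had peaks in all 4 libraries. At 9 of these (42.9%) both Tg libraries covered more than both WT libraries, against 15.2% of the genome's regions, and at none less, against 16%. The only 2 regions found in both Tg libraries and in neither WT library were inside Ltf, at chr9:111035377-111035849 (330 and 367 bp) and chr9:111036467-111036753 (260 and 238 bp); none was found in both WT libraries alone. The background shares for such regions were 1.47% and 2.24%. The bases of these windows that carried H3K27ac in both WT libraries were covered by H3K4me3 over 41.0% and 39.9% in WT and 59.2% and 42.7% in Tg. Over all gene windows the shares were 70.3% and 67.5% in WT and 73.3% and 68.8% in Tg.

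**Figure D4:**
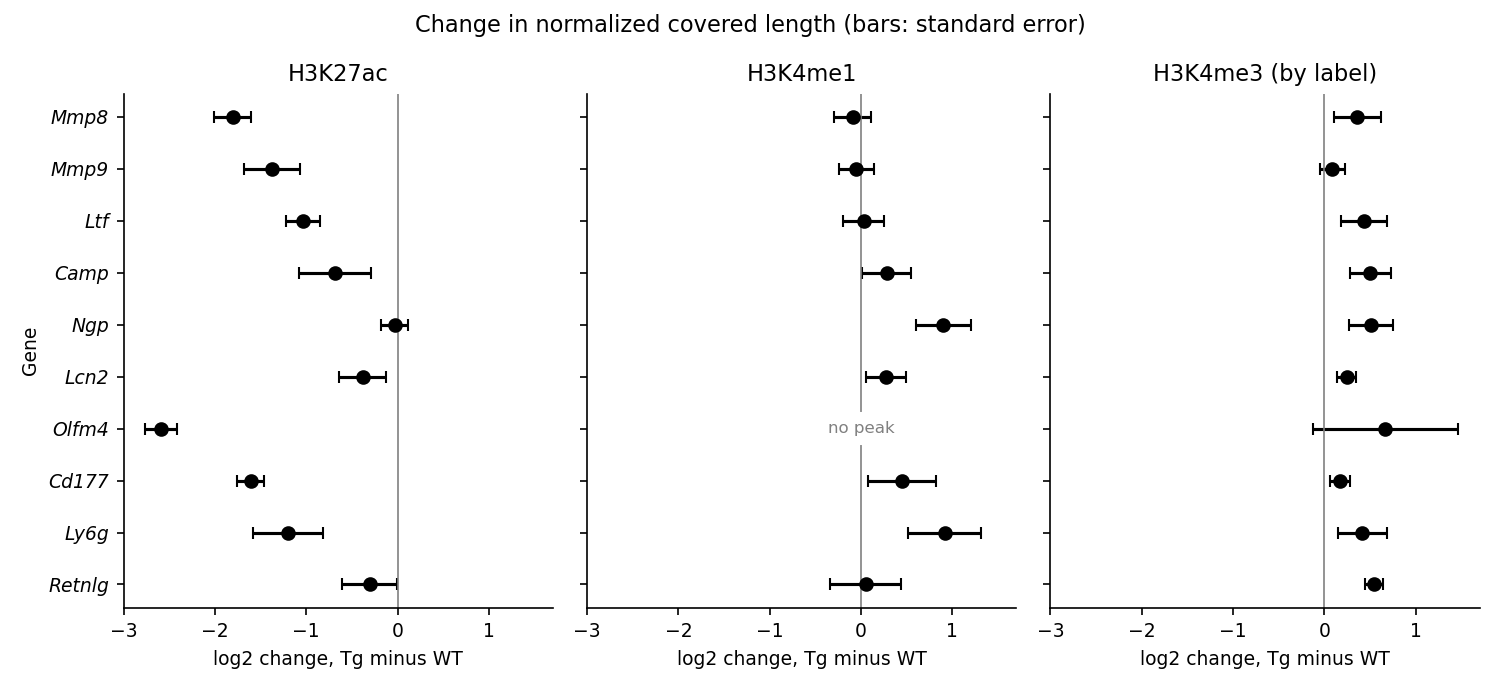
Normalized log2 change of covered length from WT to Tg (horizontal axis) for each member and mark, with standard errors as bars. H3K27ac changes run from −2.59 at Olfm4, a value set by the 500 bp added before the logarithm, to −0.03 at Ngp, while H3K4me1 and H3K4me3 changes lie near or above 0.

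A list of 18 further secondary and tertiary granule genes, which holds no member, was examined beside the 10. This list and those that follow were chosen with earlier results of these data known. Their H3K27ac values are therefore a description and no independent test. In H3K27ac, 16 of the 18 were tested and none passed the threshold. All 16 lay below 0, with a median of −0.50, and both Tg libraries were below both WT libraries at all 16, beside 45.3% of all genes. Chil1, a chitinase-like glycoprotein of secondary granules, had the largest change, from 2915 and 2740 bp in WT to 679 and 560 bp in Tg (log2 change −1.36 ± 0.218, SE, adjusted p = 0.103 by limma). Chil3, a chitinase-like lectin, and Slpi, a secreted inhibitor of neutrophil elastase, had log2 changes of −0.76 and −0.66. The median of this list was 0.32 in H3K4me1 and 0.20 in H3K4me3, and none of its genes passed in either.

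Of 8 genes of the primary granules, which are made earlier, 3 rose in H3K27ac and none fell: Mpo, myeloperoxidase, by 1.73 (adjusted p = 0.0370 by limma), and the neighbouring serine protease genes Elane and Prtn3, which share peaks, by 1.55 and 1.53 (adjusted p = 0.0367 by limma for either). Of the 8, 6 lay above 0 and 2 below, with a median of 0.61, and both Tg libraries were above both WT libraries at 4 and below them at 2. The share called higher over all genes was 0.154%. Against 21 genes called higher in the main fit, none was with scaling to equal total length or without normalization. The count was 1 with 100 bp added or with 5 kb flanks. It was 3 with a peak required in 1 library and 6 with −log10 q of at least 5. It stayed nearer the main fit with 1000 bp added (20), with peaks assigned by gene ends (15) and with a replicate block (13). The primary granule list too was chosen with earlier results known, and whether the members differ from its genes was not tested. Of 8 transcription factors of the granulocyte lineage none passed, 5 lay above 0 and 3 below, and the median was 0.14. Before normalization both Tg libraries were below both WT libraries at 6 of the 8 and above them at none, beside 45.3% and 5.59% of all genes, with sums of 88.5 and 76.5 kb in WT against 65.8 and 71.5 kb in Tg. The largest normalized log2 changes, of either sign, were 0.36 at Cebpa and Cebpb, which act on granule genes, and −0.34 at Klf5. The covered lengths of Cebpa and Cebpb overlapped between the genotypes, and those of Klf5 were lower in both Tg libraries.

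In bulk cells, fewer cells of a type and less of a mark per cell cannot be told apart. Of 10 cytosol and surface genes of neutrophils, none passed in H3K27ac; 9 lay below 0, as did 44.6% of all genes, with a median of −0.30. Their summed length was 123 and 116 kb in WT and 73.7 and 70.5 kb in Tg, led by Wfdc21 at −0.67, S100a9 at −0.57 and Csf3r at −0.45, and S100a9 shares its window's peaks with S100a8. Stem and progenitor markers lay below 0 at 5 of 7 genes tested, with a median of −0.08 and sums of 36.6 and 31.1 kb in WT and 23.4 and 27.2 kb in Tg, and Cd34 had no peak. Monocyte markers lay below 0 at 5 of 8, with a median of −0.03 and sums of 23.5 and 19.3 kb against 16.1 and 19.6 kb, and Ccr2 and Irf8 had none. Of eosinophil markers 3 of 5 lay below 0, Ear1 had no peak, and Ear2, an eosinophil-associated ribonuclease, fell from 2047 and 1560 bp to 0 and 276 bp (log2 change −1.76, adjusted p = 0.0361 by limma). Their sums were 8.19 and 6.41 kb in WT and 5.44 and 4.83 kb in Tg. Of the tested markers, 1 of 2 of mast cells and basophils, 2 of 4 erythroid, 2 of 6 megakaryocyte, 2 of 5 B-lymphoid and 0 of 3 T and NK cell genes lay below 0. The part of cell makeup in the members' H3K27ac was not tested.

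The profile of the members over all 12 libraries, each gene centred within its mark, was compared with that of 13197 genes tested in all 3 marks. Olfm4, with no H3K4me1, was left out of the members' mean. The 5 genes outside the windows with the highest Pearson r to that mean were B430306N03Rik (0.971), Aplnr, the apelin receptor (0.966), Pik3r6, a regulatory subunit of phosphoinositide 3-kinase gamma (0.963), Nfil3, a basic leucine zipper repressor (0.962), and Zmpste24, the protease that processes prelamin A (0.954). Among the members, each of which is part of that mean, Cd177 was closest to it, at 0.914, and Ngp farthest, at 0.521. The H3K27ac libraries, whose contrast chose the members, are among the 12, so the ranking restates that choice in part. All these r values share libraries and normalization, and those of the 5 outside genes are the top of a ranked list.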

How the data were processed

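Peaks of H3K27ac, H3K4me1 and H3K4me3 were analysed in 2 WT and 2 Tg libraries per mark. The authors sequenced single-end reads of 75 bases, per the labels' protocols, and made 1 narrowPeak list per sample; the submitters' processing notes name FastQC, Trim Galore, Bowtie2, SAMtools, MACS2, deepTools and mm10, with no versions. Each deposited list holds a score, a fold enrichment (ratio) and −log10 p and q values per peak, and a summit offset; these are the authors' own values, and only position and −log10 q (for ranks and a stricter list) were used. No read counts were used here.

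Covered bases were counted per gene with 10 kb flanks (RefSeq coordinates, GRCm38.p6) for genes with a peak in at least 2 of 4 libraries, quantile normalized as log2(bp + 500) within a mark, and tested with limma 3.58.1 in R 4.3.3, with Benjamini-Hochberg adjustment over all genes and a threshold of 0.05. The test was also run on simulated data, drawn as independent normal values around each gene's mean. These lack the windows without peaks and the library differences of the real lists, so nothing is read from that run. Replicate numbers occur in both genotypes, but nothing in the labels says that they pair samples, so the fit has no block. Peaks overlapping by at least 1 bp were merged into regions, and a peak over the first base of a RefSeq transcript counted as a start-site peak. A region that touched a window was counted with it, at its full length.

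The members, lists and tests were chosen with earlier results of these data known. Named are all members, the genes sharing their windows, at most 3 genes per list with the largest change plus any past the threshold, the 5 genes most like the members, Kit and Phf6. The windows of Mmp9, Camp and Ngp also hold Slc12a5, Nme6 and Klhl18, in that order. In the Mmp9 window, a region of H3K4me1 and a region of H3K4me3, both with peaks in every library, overlap Slc12a5. Alternatives covered normalization, pseudocount, filter, flank width, peak assignment, peak strength, required overlap, a replicate block and leaving out each library.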

Additional observations from a re-analysis of the deposited data

How the results depend on the processing

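Peak lists carry no depth, and each group had 2 libraries. For H3K27ac, 52 genes passed as reported (21 higher, 31 lower); 3 passed (0 higher) with scaling to equal total length, 1 without normalization (0 higher), 9 with 100 bp added (1 higher), 18 with a peak required in 1 library (3 higher), 11 with 5 kb flanks (1 higher), 29 with −log10 q of at least 5 (6 higher), and 0 to 522 when a library was left out. Of the 13 alternatives, Olfm4 passed in 9, Mmp8 in 6 and Cd177 in 5, and without Tg replicate 1 Camp, Ltf and Ly6g passed; this contrast chose the members, so these are no test of them, and the cause was not tested. The members' H3K27ac median was −1.42 without normalization, which moved the median of all genes to −0.22, and −1.26 to −0.81 with a library left out. Of 130 H3K27ac member values under the alternatives, 4 changed sign: Ngp at 0.15, 0.013 and 0.0159 and Retnlg at 0.12 (ranges with a library left out −0.0765 to 0.0159 and −0.72 to 0.12). Regions in WT alone numbered 25 when coverage of 50% was required and 17 to 23 with a library left out, and regions in Tg alone 0 to 1.

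For H3K4me1, 1 gene passed without normalization, and the members' median ran from 0.05 to 0.50 with a library left out. Ltf was −0.023 with equal totals, −0.0042 when peaks were assigned from either gene end and −0.15 to 0.20 with a library left out. With strong peaks Mmp8 was 0.0827 and Retnlg −0.0598, and with a library left out they ran from −0.20 to 0.0109 and from −0.47 to 0.60. Regions in Tg alone were 2 with 50% coverage, 0 with strong peaks, 0 with 5 kb flanks and 2 to 11 with a library left out; those in WT alone were 1 to 6. For H3K4me3 with a library left out, the median ran from 0.16 to 0.65, Mmp8 from −0.0018 to 0.72, Mmp9 from −0.0436 to 0.22, Olfm4 from −0.41 to 1.74, regions in WT alone from 0 to 1 and in Tg alone from 2 to 17. With strong peaks, 0 regions were in Tg alone.

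A fit blocked on replicate number passed 47 genes in H3K27ac (13 higher, 34 lower). Deviations of same-numbered libraries correlated at −0.233 in H3K27ac, 0.261 in H3K4me1 and −0.0895 in H3K4me3. With the numbers crossed, an alternative chosen after seeing the data, 76 H3K27ac genes passed.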
